A study of Mus musculus with 60 samples.

Results

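Voltage-gated sodium channels open when a neuron is depolarized, and the sodium that enters produces the rising phase of the action potential. Each channel has 1 large alpha subunit that forms the pore, and beta subunits that modify its gating and its place in the membrane. The genes described here are the 7 chosen by name: the alpha subunit genes Scn1a (Nav1.1), Scn2a (Nav1.2), Scn3a (Nav1.3) and Scn8a (Nav1.6), and the beta subunit genes Scn2b, Scn3b and Scn4b. They are 7 of 39756 genes in the table of cultures, and all 7 were also found in the table of hippocampus.

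The study asked how paxillin, an adaptor protein of focal adhesions, and its phosphorylation at a serine (S119) bear on gene expression and alternative splicing in developing neurons. Primary mouse cortical neurons, labelled as wild type, were given paxillin siRNA or a scrambled siRNA (SC) at DIV2 (day 2 in vitro), without or with 20 ng/ml of BDNF, a growth factor for neurons, and were collected at DIV3, DIV5 and DIV10. These 46 cultures fell into 12 groups of 2 to 6, and 2 libraries of E15, called E15 cortex here, completed the 48. Their titles name them primary neuron, as those of the cultures do, and no day in culture is given for them. The 12 hippocampus libraries, made with Nanopore long reads, were 2 for each genotype at P10, P15 and P21. The S119A mice carried Nestin-CreERT2 and Paxillin fl/S119A and had tamoxifen from P5, and the methods describe the S119A allele as held off by a floxed stop. In cells in which the Nestin driver was active, and in their descendants, Cre could thus remove both the floxed allele and that stop. The hippocampus controls carry the label WT, whereas the methods call them Paxillin fl/S119A littermates without Cre, in which neither allele would be recombined, and the files do not settle which holds. The methods state that control littermates were given tamoxifen in the same way as the experimental mice. The labels do not say that libraries of a group came from separate mice or separate platings, so p-values measure the spread between these libraries, which may be partly technical.

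On the GRCm38.p6 assembly, Scn3a lies at chr2:65457118-65567591, Scn2a at chr2:65620764-65767447 and Scn1a at chr2:66270781-66440837. Scn8a lies at chr15:100869863-101045938. The beta subunit genes lie on one chromosome, Scn3b at chr9:40269216-40291618, Scn2b at chr9:45117876-45130070 and Scn4b at chr9:45138624-45154155.

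Scn2a, Scn3a and Scn8a each carry a pair of mutually exclusive exons 5, which encode part of the voltage sensor of the first domain. The upstream one, 5N, is known as the neonatal form and the downstream one, 5A, as the adult form. The 5A exons are shown because exon 5 was the feature by which those transcripts of Scn2a, Scn3a and Scn8a whose structure could be read were assigned. They were read from GRCm38 at the exons of GENCODE vM21, run 5′ to 3′ on the coding strand (plus for Scn2a and Scn8a, minus for Scn3a), and capitals mark the bases at which the 3 exons are not all alike.
Scn2a 5A, chr2:65682690-65682781: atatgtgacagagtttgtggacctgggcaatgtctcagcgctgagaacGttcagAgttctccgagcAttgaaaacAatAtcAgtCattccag
Scn3a 5A, chr2:65525695-65525786: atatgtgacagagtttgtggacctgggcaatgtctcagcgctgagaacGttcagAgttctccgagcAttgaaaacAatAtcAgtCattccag
Scn8a 5A, chr15:100959603-100959694: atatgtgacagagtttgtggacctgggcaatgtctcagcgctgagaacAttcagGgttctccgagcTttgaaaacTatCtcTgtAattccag

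All 3 exons were 92 bases long. The 5A exons of Scn2a and Scn3a, neighbours on one chromosome, were identical, with 0 differences, and that of Scn8a differed from both at 7 bases (92.4% identity).

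Levels in the cultures are TPM (transcripts per 1000000), which allow for gene length. Paxillin mRNA (Pxn), the target of the siRNA, checked the labels on 1 day of 3 without BDNF and on no day with it. At DIV5 without BDNF it ranged from 8.43 to 9.83 TPM under paxillin siRNA and from 12.4 to 20.0 under SC, a log2 difference of -0.67 ± 0.18 (SE, adjusted p = 0.0186). At DIV3 the log2 difference was -0.16 (adjusted p = 1) and at DIV10 0.19 (adjusted p = 0.609), so on those days the comparison rests on the labels alone. With BDNF the log2 differences of Pxn were 0.17 at DIV3, -0.42 at DIV5 and -0.06 at DIV10. None passed, so those comparisons rest on the labels too. The neuron markers were present throughout. The summed level of 8 of them (Tubb3, Map2, Rbfox3, Snap25, Syt1, Stmn2, Elavl4 and Nefl) was 2895 to 4196 TPM in the DIV3 cultures without BDNF and 501 to 2076 TPM at DIV10 under paxillin siRNA, where cultures 1 and 2 stood apart at 501 and 783 TPM, against 1238 to 2053 TPM under SC. In such bulk samples, fewer neurons and less RNA per neuron cannot be told apart. In the hippocampus, 4 libraries, those numbered 2 at P15 and P21 in both genotypes, stood apart from the rest in several genes, 1 of them Scn8a.

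Among the alpha subunit genes, Scn2a and Scn3a led before birth and Scn2a and Scn8a led at DIV10. In E15 cortex, Scn3a, the alpha subunit best known from the embryonic brain, made up 43.0% ± 0.10 (SD, n = 2) of the summed TPM of the 4 alpha genes, Scn2a 36.9% ± 0.64, Scn8a 15.4% ± 0.71 and Scn1a 4.68% ± 0.03. In SC cultures Scn3a took 34.3% ± 2.48 at DIV3 (n = 3), 25.4% ± 2.53 at DIV5 (n = 4) and 17.97% ± 4.54 at DIV10 (n = 3). Scn8a, the main alpha subunit of mature nodes and initial segments, took 23.8% ± 1.75, 24.3% ± 4.40 and 30.7% ± 2.28 on the same days. The share of Scn1a, used above all by inhibitory neurons, was 6.74% ± 1.09 at DIV3 and 12.2% ± 5.28 at DIV10, and that of Scn2a lay between 35.2% and 42.5% in the SC groups without BDNF. These shares are descriptions and were not tested.

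**Figure D1:**
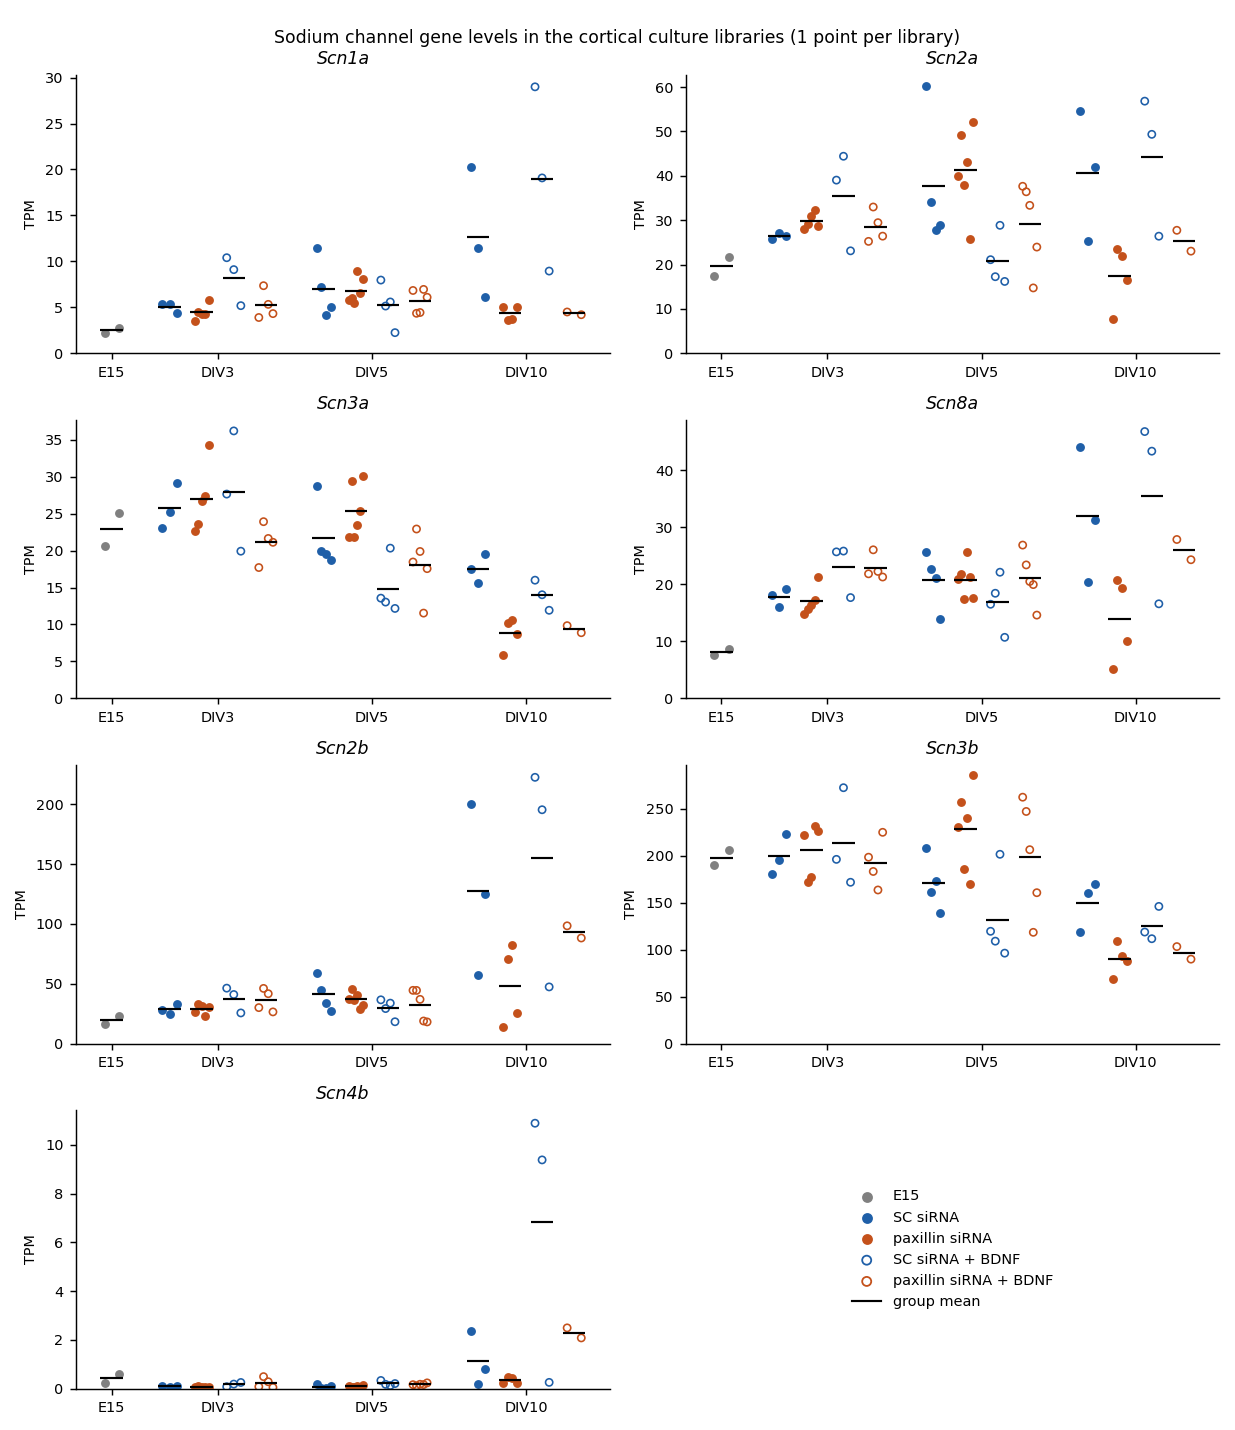
Level of each of the 7 genes in every cortical library, in TPM, by group (E15, then DIV3, DIV5 and DIV10 with SC or paxillin siRNA, without or with BDNF), with 1 point a library. Scn3b is high from E15 on, Scn2b rises to 57.1 to 201 TPM in SC cultures at DIV10, and Scn4b stays under 1 TPM before DIV10.

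In SC cultures without BDNF, Scn1a and Scn2b rose from DIV3 to DIV10 and Scn3a fell. Scn1a was 5.40, 5.38 and 4.33 TPM in the 3 cultures at DIV3 and 20.2, 11.5 and 6.10 TPM at DIV10, a log2 difference of 1.04 ± 0.34 (SE, adjusted p = 0.0164). The groups did not overlap, although the lowest DIV10 culture was close to the DIV3 level. Scn2b, a beta subunit joined to the alpha subunit by a disulfide bond, was 28.1, 25.1 and 33.2 TPM at DIV3 and 201, 57.1 and 125 TPM at DIV10, a log2 difference of 1.94 ± 0.48 (adjusted p = 0.00178). Every DIV10 culture lay above every DIV3 culture. Scn3a was 23.1, 25.3 and 29.1 TPM at DIV3 and 17.5, 15.6 and 19.5 TPM at DIV10, a log2 difference of -0.53 ± 0.21 (adjusted p = 0.0492), again without overlap. The Scn3a call was lost on leaving out any 1 of 5 of the 6 libraries, SC culture 6 at DIV10 being the exception, and in a fit of the 2 groups alone only Scn2b passed. Without SC culture 1 at DIV10, Scn1a had a difference of 0.65 (adjusted p = 0.187). The 3 genes were 3 of the 6 sodium channel genes tested, and 35.2% of all 14250 genes tested passed in the same comparison. Scn4b was under the filter of a mean of 1 TPM and was not tested.

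The other members did not pass from DIV3 to DIV10. Scn8a had means of 17.8 and 31.97 TPM, a log2 difference of 0.75 ± 0.33 (adjusted p = 0.0723), and Scn2a had a difference of 0.54 ± 0.34 (adjusted p = 0.216). Scn3b, a beta subunit known to be highest around birth, was 200 ± 21.8 TPM (SD, n = 3) at DIV3 and 150 ± 27.3 TPM at DIV10, a log2 difference of -0.43 ± 0.24 (adjusted p = 0.17). Most of the change in Scn2b fell after DIV5: between DIV5 and DIV10 it was the only 1 of the 6 that passed (log2 difference 1.49 ± 0.45, adjusted p = 0.0139), where 24.9% of all genes passed. From DIV3 to DIV5, 0 of 6 passed (9.47% of all genes). From E15 to DIV3, 0 of 6 passed (8.11% of all genes), and Scn8a, at 7.63 and 8.65 TPM in E15 cortex and 16.1 to 19.2 TPM at DIV3, came nearest with a log2 difference of 1.04 ± 0.37 (adjusted p = 0.0698). The E15 cortex also held red blood cell genes at a summed level of 882 to 1380 TPM, which reached at most 9.54 TPM in any culture, and the part of such other cells in this comparison was not tested.

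The summed neuron markers were lower at DIV10 (1238 to 2053 TPM under SC) than at DIV3 (3134 to 4196 TPM), while the summed markers of astrocytes were 326 to 954 TPM at DIV3 and 1687 to 8659 TPM at DIV10, and those of oligodendrocytes 28.2 to 43.2 TPM and 528.5 to 1508 TPM. The part of these other cells in the time course was not tested, and the direction of some genes depended on the scale. When each library was scaled by its summed neuron markers, an analysis chosen after seeing the data, the log2 difference of Scn3a from DIV3 to DIV10 in SC cultures turned from -0.53 to 0.54, whereas Scn1a and Scn2b were still higher at DIV10. Of other sodium channel genes, Scn4a, Scn7a, Scn9a, Scn10a and Scn11a were under the filter, with at most 2.76 TPM in any library. From DIV3 to DIV10 in SC cultures, where 35.2% of all genes passed, 4 of 8 potassium channel genes of the action potential rose and 0 fell, among them Kcna1 (log2 difference 2.47), Kcna2 (1.99) and Kcnq3 (1.26). Of 9 genes that regulate neuronal RNAs, 4 fell (Nova2, Ptbp2, Rbfox1 and Rbfox2) and 0 rose. Of 16 partners tested, 2 rose, among them Fgf12, an intracellular FGF homologous factor, and 1 fell, Nedd4l, a ubiquitin ligase that acts on sodium channels.

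Under paxillin siRNA, no sodium channel gene passed the test against SC at DIV3 or DIV5, and the 4 alpha subunit genes were lower at DIV10. At DIV3, 0 of 6 passed and 0 of 14250 genes passed (0%, limma), with 21 genes at an unadjusted p under 0.05, and the 6 log2 differences ran from -0.15 for Scn1a to 0.17 for Scn2a. At DIV5, where 6.18% of all genes passed, 0 of 6 did. The log2 difference of Scn3b at DIV5 was 0.41 ± 0.19 (adjusted p = 0.19) and the other 5 lay between -0.11 and 0.22. When the culture number, which pairs the cultures on these days, entered the fit as a block, 3233 genes passed at DIV5 in place of 880, and still 0 of the 6 did (Scn3b 0.41 ± 0.20, adjusted p = 0.141).

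At DIV10, Scn1a, Scn2a, Scn3a and Scn8a were lower under paxillin siRNA than under SC. They were 4 of the 6 tested, where 2.58% of all genes passed, 310 of the 367 in the direction of lower levels. The median log2 difference was -1.22 over the 6 and -0.06 over all genes tested. Scn2a was 7.62, 16.4, 23.5 and 22.0 TPM in paxillin siRNA cultures 1, 2, 10 and 11, and 54.6, 25.4 and 41.9 TPM in SC cultures 1, 3 and 6, a log2 difference of -1.22 ± 0.31 (SE, adjusted p = 0.0393). Every siRNA culture lay below every SC culture, by a narrow margin between 23.5 and 25.4 TPM. Scn3a was 5.81, 8.67, 10.1 and 10.6 TPM against 17.5, 15.6 and 19.5 TPM, a log2 difference of -0.94 ± 0.20 (adjusted p = 0.0253), and was the alpha subunit gene with the clearest gap between the groups. Scn1a was 5.03, 5.01, 3.66 and 3.69 TPM against 20.2, 11.5 and 6.10 TPM, a log2 difference of -1.22 ± 0.32 (adjusted p = 0.0395). The siRNA cultures were alike in Scn1a, and the spread lay in the SC cultures. Scn8a was 5.18, 10.1, 20.7 and 19.4 TPM against 44.1, 20.5 and 31.3 TPM, a log2 difference of -1.26 ± 0.31 (adjusted p = 0.0381), with the groups overlapping at 20.5 and 20.7 TPM.

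The beta subunit genes did not pass at DIV10. Scn2b was 13.8, 25.4, 70.9 and 82.5 TPM under paxillin siRNA and 201, 57.1 and 125 TPM under SC, a log2 difference of -1.54 ± 0.45 (adjusted p = 0.052). The groups overlapped, and cultures 1 and 2 were the lowest. Scn3b was 68.8, 87.9, 109 and 93.5 TPM against 118.6, 159.9 and 170.2 TPM, a log2 difference of -0.73 ± 0.23 (adjusted p = 0.0594), without overlap. The sum of the 4 alpha genes was 44.4 ± 15.9 TPM (SD, n = 4) under paxillin siRNA and 103 ± 31.9 TPM (n = 3) under SC. Within that sum, Scn2a took 38.3% ± 4.06 under paxillin siRNA and 39.1% ± 3.88 under SC, and Scn8a 29.4% ± 6.94 and 30.7% ± 2.28.

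**Figure D2:**
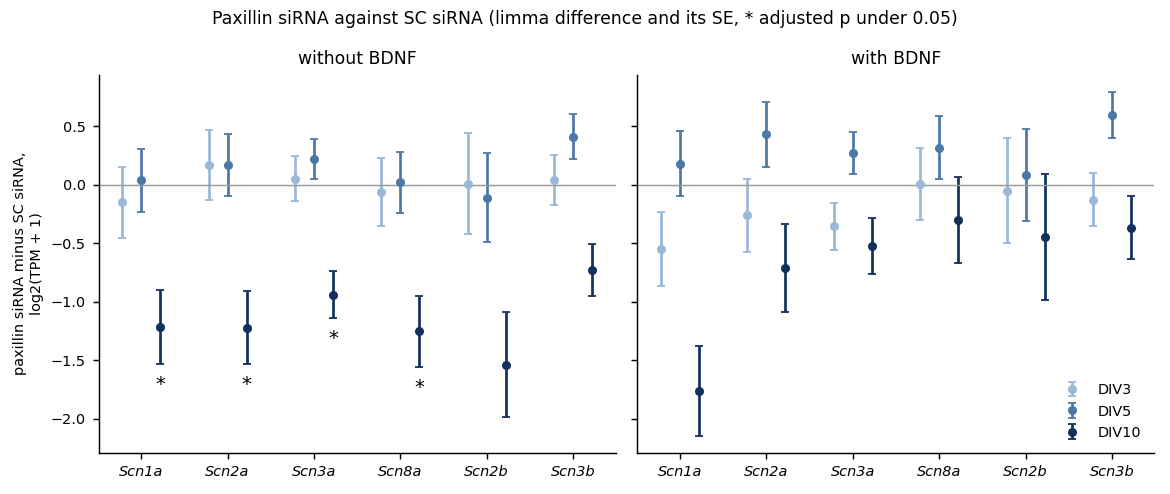
Log2 difference of paxillin siRNA from SC, on the log2(TPM + 1) scale, for 6 sodium channel genes at DIV3, DIV5 and DIV10, without BDNF (left) and with BDNF (right). Points are limma estimates, bars are their SE, and an asterisk marks an adjusted p under 0.05, which only Scn1a, Scn2a, Scn3a and Scn8a reach, at DIV10 without BDNF.

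The DIV10 difference moved with cultures and with the neuron markers. Without paxillin siRNA cultures 1 and 2, a set chosen after seeing the data because their neuron markers summed to 501 and 783 TPM against 1714 to 2076 TPM in cultures 10 and 11 and 1238 to 2053 TPM under SC, 0 of the 6 passed. The log2 differences were then -1.40 for Scn1a (adjusted p = 0.108), -0.75 for Scn2a (adjusted p = 0.475), -0.70 for Scn3a (adjusted p = 0.245) and -0.58 for Scn8a (adjusted p = 0.547). Leaving out a single library gave 0 called genes without paxillin siRNA culture 1, without culture 2 or without SC culture 1, 1 without SC culture 6, and 6 without paxillin siRNA culture 10 or 11. The share of all genes that passed moved with it, to 14.6% without culture 10 and 16.2% without culture 11, and to between 0.0211% and 0.0772% in the 3 such fits with 0 called. In a fit of the 2 groups alone, where the spread was not shared with the other groups, 0 of 6 passed (adjusted p = 0.666 for each). Scaled by the summed neuron markers, 0 of 6 passed, with log2 differences of -0.69 for Scn1a, -0.64 for Scn2a, -0.38 for Scn3a and -0.70 for Scn8a. The share of all genes that passed is not given for this fit, the 2 groups alone, or without cultures 1 and 2. The counts of 0 in those fits are thus not read as particular to sodium channel genes. The 8 inhibitory neuron markers summed to 14.8, 15.9, 218 and 452 TPM in paxillin siRNA cultures 1, 2, 10 and 11 and to 991, 68.1 and 703 TPM in SC cultures 1, 3 and 6, and the 9 astrocyte markers to 1121 to 9100 TPM and 1687 to 8659 TPM. The part of cell makeup in the lower sodium channel levels was not tested beyond these values.

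**Figure D3:**
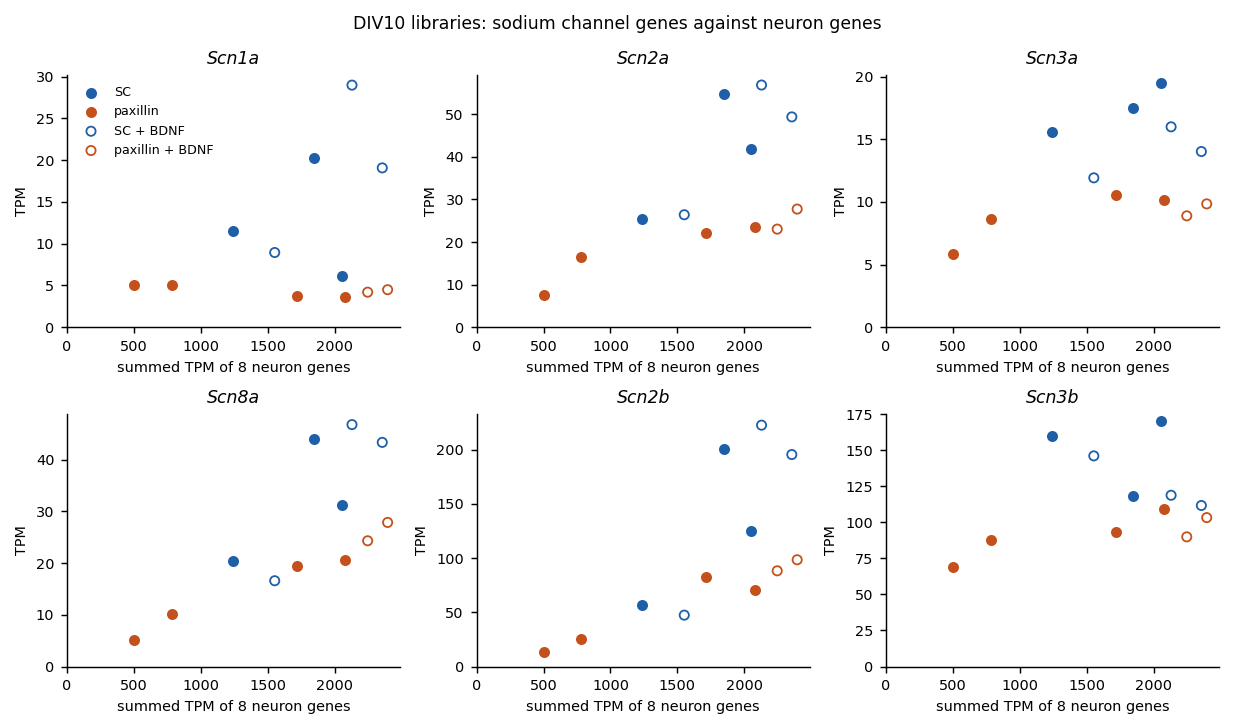
Level of 6 sodium channel genes (TPM) against the summed TPM of 8 neuron markers in every DIV10 library, with 1 point a library and 1 colour a group. Paxillin siRNA cultures 1 and 2 sit at 501 and 783 TPM on the neuron axis, apart from the other 10 libraries, and cultures 10 and 11 at 2076 and 1714 TPM.

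Other genes of excitability and the axon gave few calls at DIV10, where 2.58% of all genes passed. Of the 8 potassium channel genes 2 were lower, among them Kcnc1, a delayed rectifier (log2 difference -1.15), as was Sptbn4, the beta-IV spectrin that anchors channels at the initial segment (-1.22, 1 of 16 partners tested), and 0 of 9 regulators passed. From DIV3 to DIV10 under paxillin siRNA, Scn2a (log2 difference -0.85 ± 0.28, adjusted p = 0.00872), Scn3a (-1.53 ± 0.18, adjusted p = 5.39e-09) and Scn3b (-1.20 ± 0.20, adjusted p = 4.09e-06) fell, where 54.3% of all genes passed. The Scn2a call was lost without paxillin siRNA culture 1 at DIV10 (-0.53, adjusted p = 0.108). Scaled by the neuron markers these 3 differences turned to 0.76, 0.06 and 0.48. Scn1a and Scn2b, which rose in SC cultures over the same days, had differences of -0.03 ± 0.28 and 0.40 ± 0.39. The difference between these courses, tested as an interaction, was negative for all 6 genes, from -0.77 for Scn3b to -1.55 for Scn2b. Each had an unadjusted p under 0.05 in limma, as did 1297 of all 14250 genes tested. The 6 genes were measured in the same libraries and are not separate signs. None passed after adjustment over all genes (adjusted p = 0.527 for each), where 0.00702% of all genes did.

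With BDNF, 0 of the 6 genes passed between paxillin siRNA and SC on any day. At DIV3 0 of 14250 genes passed (0%), at DIV5 0.596% and at DIV10 0.0211%. Pxn, the target of the siRNA, did not pass on any of these days. Scn1a at DIV10 was 4.50 and 4.20 TPM in the 2 paxillin siRNA cultures and 28.99, 19.1 and 8.95 TPM in the 3 SC cultures. The groups did not overlap, and the log2 difference of -1.76 ± 0.38 had an unadjusted p of 4.02e-05 in limma and an adjusted p of 0.115. The summed neuron markers of these groups overlapped, at 2245 to 2394 TPM under paxillin siRNA and 1551 to 2354 TPM under SC. The summed inhibitory neuron markers were 957 and 873 TPM under paxillin siRNA and 2684, 2780 and 142 TPM in the SC cultures with 28.99, 19.1 and 8.95 TPM of Scn1a, and their part in the difference was not tested. Scn3b at DIV5 had a log2 difference of 0.60 ± 0.20 (adjusted p = 0.113). Scn2a (-0.71 ± 0.38) and Scn8a (-0.31 ± 0.37) at DIV10 had adjusted p of 0.727 and 0.912.

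BDNF lowered Scn3a at DIV5, averaged over both siRNAs. Scn3a was 28.7, 19.9, 19.6 and 18.7 TPM in SC cultures without BDNF and 13.6, 13.03, 20.3 and 12.2 TPM with it, and the log2 difference over both siRNAs was -0.51 ± 0.12 (adjusted p = 0.0212). It was 1 of 6 genes that passed, where 1.68% of all genes did. The SC groups overlapped through culture 3 with BDNF. That culture stood apart in its markers, with neuron markers at 3431 TPM against 1346 to 1482 TPM in the other 3. Its astrocyte markers were at 1514 against 4659 to 6869 TPM and its inhibitory neuron markers at 409 against 1784 to 4047 TPM. SC culture 3 without BDNF stood apart likewise, with neuron markers at 3073 against 1357 to 2012 TPM. Its astrocyte markers were at 1407 against 4448 to 8688 TPM and its inhibitory neuron markers at 168 against 493 to 782 TPM. Between these cultures numbered 3, Scn3a was not lower with BDNF, at 20.3 TPM with it and 19.6 TPM without. In every other same-numbered pair of that day, under either siRNA, Scn3a was lower with BDNF. Paxillin siRNA cultures 1, 2, 4, 10 and 11 had 21.8, 23.51, 30.01, 29.42 and 21.86 TPM without BDNF. With BDNF they had 18.45, 11.54, 17.55, 22.91 and 19.87 TPM, in the same order. Whether the culture number pairs cultures with and without BDNF was not tested. The fit with that number as a block is given below. Inhibitory neuron markers were 168 to 782 TPM in SC cultures without BDNF, and the part of these markers in the Scn3a difference was not tested. The call was lost in a fit of the groups of that day alone, when scaled by the neuron markers (-0.44), and on leaving out any 1 of 5 libraries, SC culture 1 without BDNF (-0.44), SC culture 1, 2 or 4 with BDNF, or paxillin siRNA culture 2 with BDNF. Scn2a had a log2 difference of -0.66 ± 0.19 on that day (adjusted p = 0.0637). At DIV3, 0 of 6 passed (6.46% of all genes), and at DIV10 0 of 6 passed (0.014%).

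Scn4b, a beta subunit known from fast-firing neurons, was under 1 TPM in all but 5 of the 48 libraries, all of DIV10. It was 2.38 TPM in SC culture 1 without BDNF, 10.9, 9.38 and 0.26 TPM in the 3 SC cultures with BDNF and 2.495 and 2.08 TPM in the 2 paxillin siRNA cultures with BDNF. The level was thus above 1 TPM in 4 of the 5 libraries with BDNF and in 1 of the 7 without. The summed inhibitory neuron markers were 2684, 2780 and 142 TPM in the 3 SC cultures with BDNF, in the same order, 957 and 873 TPM in the 2 paxillin siRNA cultures with BDNF, 991 TPM in SC culture 1 without BDNF and 14.8 to 703 TPM in the other 6. Among the DIV10 libraries, the highest Scn4b thus stood in those with the highest inhibitory neuron markers. This did not hold on other days. SC cultures 1 and 2 with BDNF at DIV5 had inhibitory neuron markers at 4047 and 3666 TPM, and Scn4b at 0.34 and 0.18 TPM. The part of these markers in the result was not tested. In the fit with no filter on low genes, BDNF against none at DIV10 gave a log2 difference of 1.38 (adjusted p = 0.015). The share of all genes that passed in that fit is not given, so the call is not read as particular to Scn4b. With the filter, 0.014% of all genes passed.

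Across the 48 libraries, the genes whose levels were most like each member's were found by Pearson's r of log2(TPM + 1), which describes libraries that share age and treatment. Among the 3 genes most like Scn2a were Tmem178b (r = 0.958) and Sptbn1 (0.918), a beta spectrin. Scn8a was most like Cacna1a (0.937), the pore of P/Q-type calcium channels, and then Faah (0.926) and Chga (0.907). Scn2b was most like Atp6v0e2 (0.936), Rasl10b (0.93) and Nefh (0.926), the heavy neurofilament chain. Scn3a was most like St6gal2 (0.933), Acvr2a (0.931) and Kidins220 (0.931), and Scn3b like Syt16 (0.937), Ablim1 (0.923) and Neo1 (0.902). Scn1a had the lowest values, with Mfsd4a (0.796) and Cds2 (0.784) among its 3.

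In the hippocampus, each library held 3162777 to 5687908 reads, and values are reads summed over the transcripts of a gene, which are not divided by length and are not compared between genes. Scn1a, Scn2b and Scn4b rose from P10 to P21. They were 3 of the 7 genes, all of which were tested here, where 15.6% of the 13611 genes tested passed. Scn4b had 4 and 12 reads in the P10 controls and 8 and 3 in P10 S119A, and 60 and 46 reads in the P21 controls and 82 and 48 in P21 S119A, a log2 fold change of 3.50 ± 0.51 (SE, edgeR adjusted p = 0.00165). Scn2b had 37, 24, 25 and 18 reads at P10 and 77, 116, 61 and 118 at P21 in the same order, a log2 fold change of 2.21 ± 0.41 (edgeR adjusted p = 0.00545). For both beta subunits every P21 library lay above every P10 library. Scn1a had 10, 14, 11 and 12 reads at P10 and 24, 11, 43 and 33 at P21. Its log2 fold change was 1.51 ± 0.37 (edgeR adjusted p = 0.0215). The second P21 control was at the P10 level in reads, but its library was smaller, at 3547152 reads against 5064015 to 5454696 at P10. As a share of library reads, Scn1a in every P21 library lay above every P10 library. The Scn1a call was lost without control 1, S119A 1 or S119A 2 at P10, or S119A 2 at P21 (edgeR adjusted p up to 0.0723). In the control libraries alone, 2 a group, 0 of 7 passed (log2 fold changes 3.16 for Scn4b, 2.20 for Scn2b and 0.93 for Scn1a).

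The rise of the beta subunits was present by P15. From P10 to P15, Scn2b (58, 93, 49 and 70 reads at P15, log2 fold change 1.71 ± 0.41, edgeR adjusted p = 0.0377) and Scn4b (54, 59, 33 and 7 reads at P15, 2.56 ± 0.51, edgeR adjusted p = 0.0192) passed, 2 of 7, where 5.8% of all genes did. Both calls were lost on leaving out control 1, control 2 or S119A 2 at P10 or control 2 at P15, and that of Scn2b also without S119A 1 at P10, S119A 2 at P15 or S119A 2 at P21. From P15 to P21, 0 of 7 passed (0.162% of all genes). Scn3a, with 157 to 198 reads at P10 and 99 to 215 at P21, had a log2 fold change of -0.03 ± 0.25 from P10 to P21 (edgeR adjusted p = 0.953), and without the 4 libraries that stood apart, which held higher Scn3a than the others of their age and genotype, one of -0.38 ± 0.17 (edgeR adjusted p = 0.0888). Scn2a, with 91 to 113 reads at P10 and 98 to 143 at P21, had one of 0.46 ± 0.21 (edgeR adjusted p = 0.176). Scn3b, with 524 to 631 and 416 to 911 reads, had one of 0.49 ± 0.16 (edgeR adjusted p = 0.0619). As a share of library reads, Scn3b in every P21 library lay above every P10 library, narrowly in the second control, whereas Scn2a overlapped.

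Scn8a split by library number rather than by age or genotype. It had 54 to 70 reads in the 4 P10 libraries and 56, 74, 92 and 63 reads in the P15 and P21 libraries numbered 1, and 2, 2, 3 and 7 reads in those numbered 2. As reads per 1000000 (RPM) these were 9.85 to 18.4 in the libraries numbered 1 and 0.41 to 1.51 in those numbered 2. Between the same libraries, Scn2a (17.8 to 29.1 RPM against 21.1 to 30.9) and Scn3b (126 to 172 RPM against 108 to 197) overlapped, as did Scn1a and Scn4b. Scn2b (9.27 to 15.4 RPM against 18.9 to 32.7) and Scn3a (19.8 to 31.3 RPM against 32.4 to 46.5) did not overlap. Unlike Scn8a, both were higher in the libraries numbered 2. The share of all genes that separate these libraries was not counted, so the split is not read as particular to sodium channel genes. In the same libraries the 5 oligodendrocyte precursor markers summed to 519 to 583 against 241 to 265 RPM, the 8 inhibitory neuron markers to 883 to 1255 against 1751 to 2685, and the 5 red blood cell markers to 170 to 632 against 610 to 3072. The part of these markers in the Scn8a split was not tested. Scn8a from P10 to P21 thus had a log2 fold change of -0.28 ± 0.99 (edgeR adjusted p = 0.871). Without the 4 libraries it was 0.64 (edgeR adjusted p = 0.0199), and 5 of the 7 genes passed, Scn3b (0.45, edgeR adjusted p = 0.00406) and Scn8a added to the 3. In that fit 35% of all genes passed (4812 of 13731), so calls were more frequent in general.

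**Figure D4:**
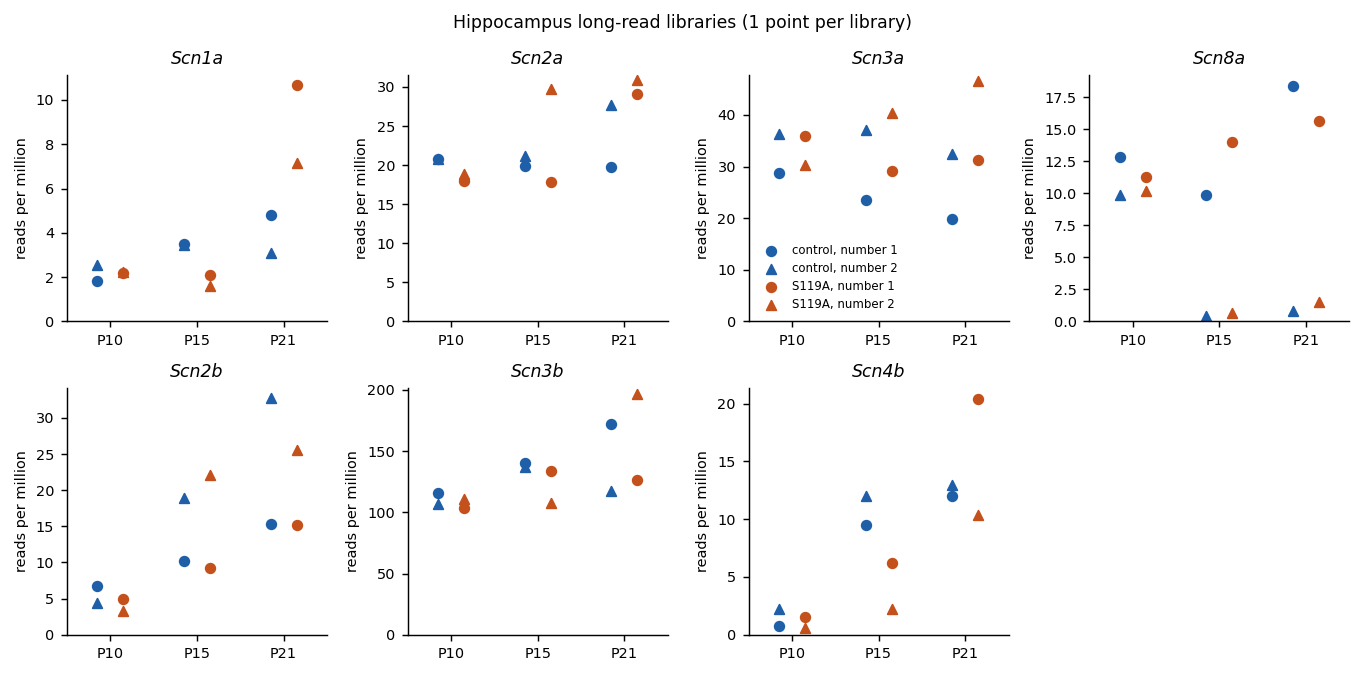
Level in RPM (reads per 1000000) of the 7 sodium channel genes in the 12 hippocampus libraries, by age in days after birth, genotype and library number. Scn2b and Scn4b are higher at P21 than at P10 in every library, and Scn8a is near the bottom in the 4 P15 and P21 libraries numbered 2.

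Between S119A and control hippocampus, no sodium channel gene passed. In the fit with age, 0 of 7 and 0 of 13611 genes passed (0%, edgeR), with 127 at an unadjusted p under 0.05, and DESeq2 also called 0. Log2 fold changes ran from -0.52 ± 0.39 for Scn4b to 0.21 ± 0.21 for Scn3a, and that of Scn8a, 0.05 ± 0.82, was the least precise. Pxn itself had a log2 fold change of -0.59 in the same fit (edgeR adjusted p = 1). At single ages, 0 of 7 passed at P10, P15 or P21, where 0% of all genes passed at each. Scn1a had 20 and 17 reads in the P15 controls against 11 and 5 in S119A (log2 fold change -0.92 ± 0.36), and 24 and 11 reads in the P21 controls against 43 and 33 in S119A (1.05 ± 0.33). These differences lay in opposite directions, with 2 libraries a group and 5 to 43 reads in each, and neither passed. The interaction of age and genotype had an edgeR adjusted p of 1 for Scn1a, and 0 of 13611 genes passed it.

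Of other channel genes in the hippocampus, where 15.6% of all genes passed from P10 to P21, 4 of 8 potassium channel genes rose and 0 fell, among them Kcna1 (log2 fold change 1.56), Kcnc1 (1.14) and Kcnq3 (1.02). Of 17 partners, Nfasc, the neurofascin of initial segments and nodes, rose (1.79) and Fgf13, an intracellular FGF homologous factor, fell (-1.39). Of 9 regulators Rbfox1 rose (1.27). Scn7a, another sodium channel gene, had a log2 fold change of 0.49 ± 0.40 and did not pass.

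The long reads were counted per RefSeq transcript, and 39 transcripts of the 7 genes were in the table, 36 of them with reads and 17 with enough to test. From P10 to P21, 6 of the 17 passed, where 14% of all 24751 transcripts tested did, and 1 of the 6 fell. The one that fell was Scn2a NM_001099298.3, which holds exon 5N. It had 11 and 10 reads in the P10 controls and 12 and 15 in P10 S119A, 3, 2, 5 and 2 at P15, and 2, 0, 3 and 3 at P21. Every P10 library lay above every later one, and the log2 fold change from P10 to P21 was -2.25 ± 0.44 (edgeR adjusted p = 0.00707). It passed also without the 4 libraries that stood apart, a fit added after seeing the data (-1.97, edgeR adjusted p = 0.0141). The 5N structure was read from version 2 of this transcript, while the counts are keyed to version 3.

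As a share of all Scn2a reads, this 5N transcript made up 8.85% to 14.7% in the 4 P10 libraries, 1.92% to 5.32% at P15 and 0% to 2.56% at P21. Pooled by age, the shares were 11.5%, 2.96% and 1.75%. By genotype, the P10 shares were 9.73% and 8.85% in controls and 13.2% and 14.7% in S119A, without overlap. Pooled controls and S119A had 2.30% and 3.72% at P15 and 1.02% and 2.31% at P21, from few reads. The transcript's log2 fold change of S119A against control was 0.69 ± 0.35 (SE, edgeR) and did not pass. The difference in share was not tested. The library at 0 had 0 of 98 reads, which allows a share of up to 3.06%, and this limit covers counting error only. Gene-level Scn2a did not fall over the same ages. The most abundant Scn2a transcript, NM_001346679.2, took 55.1% of Scn2a reads at P10, 60.7% at P15 and 59.7% at P21, and NM_001346680.1 took 24.8%, 17.5% and 18.2%. XM_006498583.4 took 6.68%, 16% and 14%, and by library 6.20% to 7.08% at P10, 7.07% to 10.6% in the P15 and P21 libraries numbered 1 and 11.9% to 29.6% in those numbered 2, so that the higher later shares lay mostly in the libraries that stood apart. The exon 5 of these other transcripts was not read here, so the 5N share is that of 1 transcript and not of the exon.

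**Figure D5:**
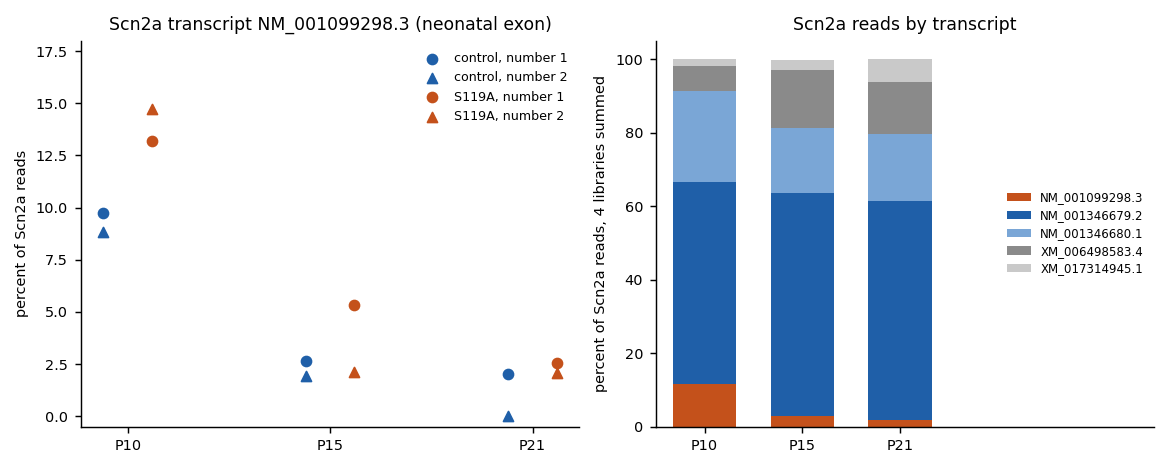
Left, share of Scn2a reads (percent) assigned to the 5N transcript NM_001099298.3 in each hippocampus library, by age and genotype. Right, stacked shares of Scn2a reads of 5 transcripts pooled by age, in which the 5N transcript goes from 11.5% at P10 to 1.75% at P21.

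The 5 transcripts that rose were spread over 5 genes. They were NM_001013390.3 of Scn4b (log2 fold change 3.53, edgeR adjusted p = 0.00161), NM_018733.2 of Scn1a (2.38, edgeR adjusted p = 0.025), NM_001014761.2 of Scn2b (2.32, edgeR adjusted p = 0.00474), XM_017314945.1 of Scn2a (2.15, edgeR adjusted p = 0.0488, and 0.081 with a term for the 4 libraries that stood apart) and NM_001359700.1 of Scn3b (1.06, edgeR adjusted p = 0.00669). On leaving out a library, the call of XM_017314945.1 was lost for 11 of the 12 libraries (edgeR adjusted p up to 0.158) and that of NM_018733.2 for 6 of 12 (up to 0.0905), while the other 3 of these kept theirs. Scn3b as a whole did not pass (0.49, edgeR adjusted p = 0.0619), nor did its other tested transcripts, with log2 fold changes of 0.45, 0.52 and 0.33. Whether the transcript that rose differed from its gene was not tested. Between S119A and control, 0 of 17 transcripts and 0 of all transcripts tested passed (0%, edgeR).

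For transcripts that hold exon 5 of Scn3a or Scn8a and could be assigned, reads were few. The Scn3a transcript NM_018732.3, which holds 5A, had 12 to 26 reads at P10, 2 to 18 at P15 and 4 to 15 at P21. The Scn8a transcript NM_001077499.2, which holds 5N, had 0, 1, 4 and 2 reads in the P10 libraries, 1 read in 1 of the 4 P15 libraries and 0 in all 4 at P21. Scn8a NM_011323.3, which holds 5A, had 0 to 5 reads in every library. These counts allow no comparison of 5N with 5A within a gene.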

How the data were processed

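The cortical RNA-seq values were deposited by the authors as TPM per gene, made with STAR 2.7.10 and RSEM 1.3.3 per the labels, and each library sums to 1000000. The hippocampus file was deposited by the authors as counts of long reads per RefSeq transcript, after minimap2 alignment, a mapping quality above 50 and IsoQuant. Of 122459 transcripts, 119243 were matched to a gene and 3216 (1.81% of reads) were left out of gene sums.

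TPM were tested as log2(TPM + 1) with limma 3.58.1 over 13 groups in all 48 libraries, for the 14250 genes whose mean was 1 TPM or more. A difference on this scale understates the change of low genes, and RSEM may divide reads unevenly among similar genes. Counts were tested with edgeR 4.0.16 (TMM, quasi-likelihood), and DESeq2 1.42.0 was an alternative. Both fits adjusted p-values by Benjamini-Hochberg over all features tested, at 0.05, and were tested on simulated data. R was 4.3.3 and Python 3.11.15. The named genes are the 7 members, fixed lists (other family genes, partners, potassium channels, regulators, of which called genes are named) and the 3 most similar genes of each member. Members and lists were chosen with earlier results of these data known. The culture number paired paxillin siRNA with SC cultures without BDNF at DIV3 and DIV5: the correlations of same-numbered deviations were 0.28 to 0.81 at DIV3 (3 pairs) and 0.24 to 0.49 at DIV5 (4 pairs). At DIV10 without BDNF only 1 number was shared, with BDNF at DIV5 1 of 3 pairs was at 0.079, and at DIV10 none was shared, so the block was only an alternative there. A few genes of the lists and some exon sequences are not reported here.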

Additional observations from a re-analysis of the deposited data

Results flagged for a closer look

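Each of the 7 genes was examined in each of the 7 groups of 4 to 6 libraries, which made 49 sets. In 2 of them 1 library lay far from the others, and chance alone marks about 1 set in 20. Both were Scn3a at DIV5. SC culture 1 without BDNF had 28.7 TPM of Scn3a, and the other 3 cultures 18.7 to 19.9 TPM. The gap to the nearest was 0.877 of the range. SC culture 3 with BDNF had 20.3 TPM of Scn3a, and the other 3 cultures 12.2 to 13.6 TPM, with a gap of 0.8292 of the range. Both libraries enter the DIV5 comparison of BDNF with none.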

How the results depend on the processing

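Counts of sodium channel genes that passed moved with the fit. For paxillin siRNA at DIV10, 4 became 2 with no filter on low values, 0 with only the groups compared, 0 relative to the neuron markers and 0 without paxillin siRNA cultures 1 and 2, the last 2 chosen after seeing the data. With no filter, 1 gene passed for paxillin siRNA with BDNF at DIV10 and 1 for BDNF at DIV10. With only the groups compared, 1 passed for BDNF at DIV3, 0 for BDNF at DIV5, 2 from E15 to DIV3, 0 from DIV5 to DIV10 and 1 from DIV3 to DIV10 in SC. Relative to the neuron markers, 0 passed for BDNF at DIV5 and 6 from DIV3 to DIV5 in SC. Those markers summed to 3134 to 4196 TPM at DIV3 and 1357 to 3073 TPM at DIV5 in SC. Dividing by them thus raises the DIV5 level of genes in general. On the same scale the Scn3a difference from DIV3 to DIV10 turned to 0.54 in SC. Those under paxillin siRNA turned to 0.76 for Scn2a, 0.056 for Scn3a and 0.48 for Scn3b. Without cultures 10 and 11, 5 genes passed the interaction. In the hippocampus, 5 passed from P10 to P21 with a term for the 4 libraries numbered 2 or without them, and in controls alone 0 passed from P10 to P15 and 0 from P10 to P21. For most fits of this section the share of all genes that passed is not given. The counts are thus not read as particular to sodium channel genes. The causes were not tested.

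With the culture number as a replicate block, 1 gene passed for paxillin siRNA with BDNF at DIV5 (Scn3b) and 1 at DIV10 (Scn1a), 2 for BDNF at DIV5 and 2 from DIV5 to DIV10, and other counts stayed within 1.5 times. The correlation of same-numbered controls and S119A was -0.04 at P10, 0.85 at P15 and 0.84 at P21, so not every pair correlated and the number was not taken to pair the libraries. The block there left the count from P10 to P15 at 2, and gave 4 from P10 to P21 in place of 3.

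Leaving out each library gave 0 to 6 genes for paxillin siRNA at DIV10. It gave 0 to 1 for paxillin siRNA with BDNF at DIV5 and DIV10 (1 without SC culture 3 with BDNF of that day), 0 to 3 for BDNF at DIV5 and 0 to 1 at DIV10 (1 without SC culture 3 with BDNF). From DIV5 to DIV10 in SC it gave 0 (without SC culture 1 at DIV10) to 2, from DIV3 to DIV10 1 (without SC culture 1 at DIV10 or 3 at DIV3) to 3, and from P10 to P15 0 to 2. Under settings other than leaving out a library, 124 recomputed counts stayed within 1.5 times and 22 moved, and of recomputed values of single genes or transcripts 108 kept their call, 32 lost it and 4 reversed. The planned exon 5N share tests were not run, because the exon structure of most transcripts was not in the annotation used here, so that few reads could be assigned to either exon of a pair.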
